A study of Mus musculus with 6 samples.

Results

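The miRNAs described here come from 6 hairpins of the Dlk1-Dio3 imprinted region of mouse chromosome 12, namely miR-337, miR-431, miR-433, miR-127, miR-434 and miR-136, which lie at or next to the transcript that runs antisense to Rtl1. They were chosen by name, taking either arm of each hairpin and with no cut on a measured value. Earlier results of these data were known when they were chosen. Of the 778 mature miRNAs in the table, 12 belonged to these hairpins, so both arms of all 6 hairpins were listed. Small RNA was sequenced from mouse primary mesangial cells, which hold up the capillary loops of the kidney glomerulus and can contract, in 3 Control libraries and 3 libraries of cells given the pro-fibrotic cytokine TGF-β1 (transforming growth factor β1) at 10 ng/ml for 72 h. Both groups were grown in medium with 25.5 mM glucose and 20% foetal bovine serum at passages 3 to 6, so the Control cells were high-glucose cultures too. The strain, age and number of the animals, and any vehicle given to the Control cells, are not given in the sources used here. The labels do not say whether the libraries of a group came from separate cultures, so every p-value measures only the spread between these libraries, which may be technical. The comparison asked which of these miRNAs differed in abundance after TGF-β1.

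In the Dlk1-Dio3 region the protein-coding genes Dlk1, Rtl1 and Dio3 are expressed from the paternal chromosome, while the non-coding transcripts Meg3, anti-Rtl1, Rian and Mirg, with the small RNAs cut from them, are expressed from the maternal one. Rtl1 is a gene derived from a retrotransposon that is needed in the placenta. The anti-Rtl1 transcript crosses its coding sequence on the opposite strand, so that hairpins cut from it are fully complementary to Rtl1 mRNA and can direct its cleavage. An miRNA hairpin gives a 5p and a 3p arm, of which one is usually retained, and bases 2 to 8 of the mature strand, the seed, do most of the target pairing. These miRNAs are abundant in embryo, placenta and brain and are low in most adult tissues. Among them, miR-127-3p is known to repress Bcl6, and miR-433-3p has been studied in kidney fibrosis.

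The mature sequences of the 5 miRNAs with enough reads for the test are printed below, from RefSeq (build GRCm38.p6), 5′ to 3′ with the seed in capitals.
mmu-miR-127-3p: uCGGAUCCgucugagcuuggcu
mmu-miR-433-3p: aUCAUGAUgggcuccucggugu
mmu-miR-434-3p: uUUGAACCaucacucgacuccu
mmu-miR-337-5p: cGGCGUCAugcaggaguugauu
mmu-miR-127-5p: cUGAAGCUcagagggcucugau
All 12 sequences were found in the RefSeq table, with lengths of 21 to 22 nt and GC contents of 36.4% to 59.1%. No other mature sequence among the 1679 in that table carried the seed of any of the 12, and the closest other mature sequence differed from a member by at least 6 edits. None of the 12 rows was identical to another row of the table, as would arise where the same reads were counted for 2 miRNAs.

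By GENCODE vM1 on NCBIM37, the build the study used for its RNA reads, the 6 hairpins lie on the plus strand of chromosome 12 within 9609 bp. Mir337 lies at chr12:110824000-110824096, and it ends 3307 bp before Rtl1 (chr12:110827404-110838540, minus strand). The other 5 hairpins, Mir431 (chr12:110828657-110828747), Mir433 (chr12:110829925-110830048), Mir127 (chr12:110831042-110831138), Mir434 (chr12:110832716-110832809) and Mir136 (chr12:110833527-110833608), lie within an exon of Rtl1 and within its coding sequence, on the opposite strand. The exact complements of 10 of the 12 mature sequences were found in the coding part of Rtl1, and the remaining 2, both arms of miR-337, were not. The sites of the 3 most abundant miRNAs are shown as they read along Rtl1 mRNA, with the bases that face the seed in capitals.
Rtl1 site of miR-127-3p, chr12:110831098-110831119, minus strand: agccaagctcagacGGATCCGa
Rtl1 site of miR-433-3p, chr12:110829991-110830012, minus strand: acaccgaggagcccATCATGAt
Rtl1 site of miR-434-3p, chr12:110832775-110832796, minus strand: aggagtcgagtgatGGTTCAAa
No measurement of Rtl1 mRNA was used here.

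The values are RPM, the reads of a miRNA divided by those of the whole library, times 1000000. The totals were between 16478281 and 17623671 reads in Control and between 17086815 and 20169254 in TGF-β1 (exact two-sided permutation p = 0.2, n = 3 each), so that 1 read was worth 0.0496 to 0.0607 RPM. The rows of the table held 79.6% ± 0.142 of the total in Control and 72.3% ± 0.752 in TGF-β1 (SD, n = 3 each), and 0.1, the lowest two-sided p that 3 against 3 libraries allow, came from the exact permutation test. On the RPM scale the median log2 change over the 408 fitted miRNAs was -0.17, and it was -0.026 with TMM scaling and 0.067 with upper-quartile scaling. The number of miRNAs called higher and lower was 71 and 130 with library totals, 98 and 94 under TMM, 93 and 92 under the median of ratios, 95 and 73 under the upper quartile, and 84 and 104 when each value was divided by the sum of its library's rows.

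After TGF-β1, 4 of the 5 fitted miRNAs of the Rtl1 antisense region rose and 0 fell, namely miR-127-3p, miR-433-3p, miR-434-3p and miR-337-5p, between 2.06-fold and 2.77-fold by their group means. Over all 408 fitted miRNAs, 17.4% were called higher and 31.9% lower by limma at an adjusted p under 0.05. The single fitted miRNA that was not called, miR-127-5p, is the minor arm of the same hairpin as miR-127-3p. The median log2 change of the 5 was 1.02, beside -0.17 over all fitted miRNAs. Of the 5, 3 were called with a log2 change above 1, as were 4.41% of all fitted miRNAs. In each of these 4 miRNAs every TGF-β1 library lay above every Control library, which was so for 20.8% of all fitted miRNAs. In a bulk library, more cells that hold a miRNA and more of it per cell cannot be told apart.

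**Figure D1:**
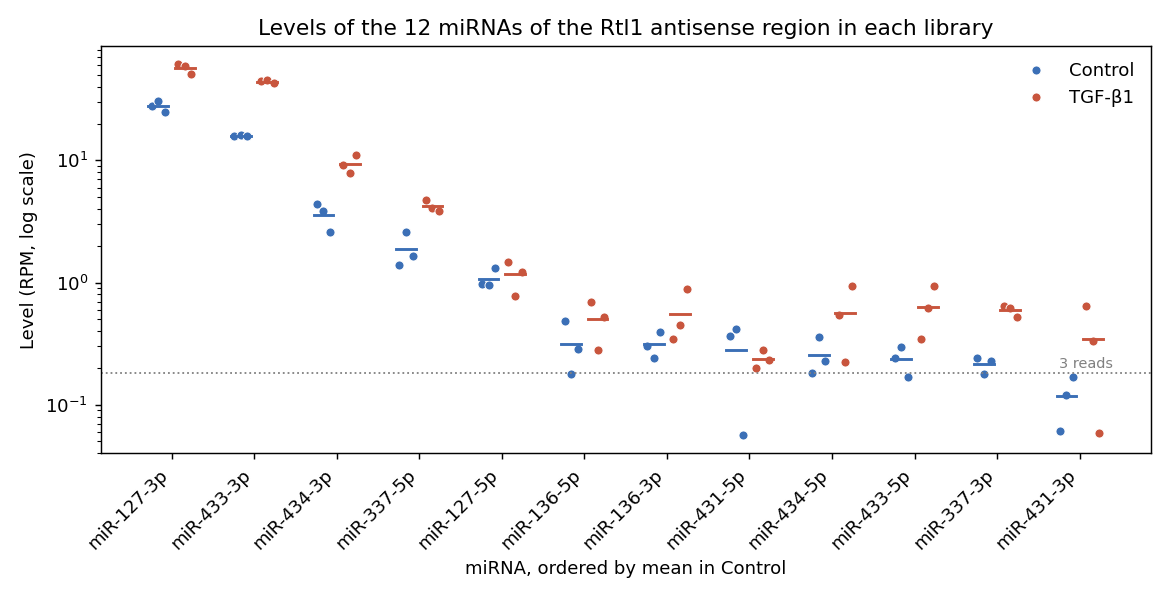
Level of each of the 12 miRNAs in each library, in RPM on a log axis, ordered by the mean in Control. Points are libraries (3 per group), short bars are group means and the dotted line marks 3 reads in the shallowest library (0.182 RPM). The 4 most abundant miRNAs have their TGF-β1 points above all their Control points, while those of miR-127-5p overlap.

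MiR-127-3p was the most abundant of the 12 in both groups, and it ranked 100 among the 778 miRNAs by mean level. Its level was 28.1, 30.6 and 24.9 RPM in Control replicates 1 to 3, and 61.1, 59.4 and 51.4 RPM in TGF-β1 replicates 1 to 3, from 439 to 1232 reads a library. The lowest TGF-β1 library was thus well above the highest Control library. The group means were 27.9 ± 2.84 and 57.3 ± 5.19 RPM (SD, n = 3 each), a ratio of 2.06, and log2(RPM + 1) changed by 1.02 ± 0.13 (SE; adjusted p = 0.000682, limma). The change stood just above the log2 threshold of 1, and it fell to 0.94 without Control replicate 3, to 0.97 without TGF-β1 replicate 1 and to 0.99 without TGF-β1 replicate 2, still with a limma adjusted p under 0.05 each time.

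MiR-433-3p, whose hairpin lies just upstream of that of miR-127, had the largest fitted change of the 5 and the least spread between libraries relative to its mean. Its level was 15.8, 16.2 and 15.9 RPM in the Control libraries and 44.5, 45.3 and 42.9 RPM in the TGF-β1 libraries. The libraries of a group therefore differed by far less than the groups did. The means were 15.99 ± 0.222 and 44.2 ± 1.24 RPM (SD, n = 3 each), a ratio of 2.77, and log2(RPM + 1) rose by 1.41 ± 0.11 (SE, adjusted p by limma = 4.62e-05). Over 18 other fits its log2 change was between 1.06 and 1.71, and all 18 called it.

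MiR-434-3p came next, at a far lower level. It had 4.37, 3.84 and 2.61 RPM in the Control libraries and 9.17, 7.87 and 11.2 RPM in the TGF-β1 libraries, from 46 to 191 reads. The lowest Control library and the highest TGF-β1 library were both those numbered 3, and the groups stayed apart. Its means of 3.61 ± 0.902 and 9.41 ± 1.67 RPM (SD, n = 3 each) stood in a ratio of 2.61, and log2(RPM + 1) rose by 1.18 ± 0.20 (SE, adjusted p by limma = 0.00211).

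MiR-337-5p, from the hairpin outside Rtl1, was the only 5p arm among the 4 called miRNAs. It had 1.40, 2.58 and 1.65 RPM in the Control libraries and 4.71, 4.07 and 3.86 RPM in the TGF-β1 libraries, from 23 to 95 reads. Control replicate 2 was the highest of its group and remained below the lowest TGF-β1 library. The means were 1.87 ± 0.623 and 4.22 ± 0.441 RPM (SD, n = 3 each). Their ratio was 2.25, while the fitted log2 change was 0.88 ± 0.18 (SE, adjusted p by limma = 0.00519), since the pseudocount of 1 RPM shrinks changes at this level. On the recovered reads, edgeR gave a log2 change of 1.17 with an adjusted p of 0.00673 (library totals, with the filter).

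MiR-127-5p, the other arm of the miR-127 hairpin, was measured at 0.971, 0.959 and 1.31 RPM in the Control libraries and at 1.49, 0.782 and 1.23 RPM in the TGF-β1 libraries, from 14 to 30 reads. The groups overlapped, with both the lowest and the highest library in TGF-β1. The means were 1.08 ± 0.196 and 1.17 ± 0.357 RPM (SD, n = 3 each), and limma gave them a log2 difference of 0.05 ± 0.16 (SE) at an adjusted p of 0.807.

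Within each group the order of the 5 levels was the same, miR-127-3p, miR-433-3p, miR-434-3p, miR-337-5p and miR-127-5p. In Control each of these lay apart from the next in the order, with no overlap between libraries. In TGF-β1 the first 4 lay apart from the next, while miR-127-5p overlapped with miR-433-5p, the miRNA after it. The first 2 took between 82.2% and 87.1% of the reads of the 12 miRNAs in each library. Summed over all 12, the level was 52.1 ± 4.07 RPM in Control and 119.8 ± 4.89 RPM in TGF-β1 (SD, n = 3 each), a ratio of 2.30. Without miR-127-3p the sum was 24.3 ± 1.23 and 62.5 ± 1.41 RPM, a ratio of 2.57.

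Because miR-433-3p and miR-127-3p lie about a kilobase apart and had different folds, their ratio within each library was taken, a measure chosen after the values were seen. The ratio of miR-433-3p to miR-127-3p was 0.564, 0.531 and 0.638 in the Control libraries and 0.729, 0.762 and 0.835 in the TGF-β1 libraries. Every TGF-β1 library was above every Control library, so miR-433-3p came closer to the level of miR-127-3p. The mean ratio was 0.578 ± 0.0546 and 0.775 ± 0.0542 (SD, n = 3 each), a difference of 0.198 (exact two-sided permutation p = 0.1, the smallest possible), and it does not depend on the scaling between libraries.

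Beside the treatment, the 5 fitted miRNAs did not share one course over the libraries. Taking each library's deviation from its group mean on the log2 scale, 5 of the 10 pairs had a correlation above 0, and the values ran from -0.50 to 0.78 over 6 libraries with a median of 0.0018. The highest was that of miR-127-3p with miR-433-3p, and the lowest that of miR-433-3p with miR-434-3p. These points share library totals and depth, and the low miRNAs among them rest on few reads, so the values are given as a description only.

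The arm that was retained differed between hairpins. Over all Control libraries the 3p arm made up 98.5% of the reads of miR-433 (95% exact binomial interval 97.5% to 99.2%), 96.3% of those of miR-127 (95.1% to 97.2%) and 93.3% of those of miR-434 (88.9% to 96.4%). At miR-337 the 5p arm prevailed instead, and the 3p share was 10.4% (5.30% to 17.8%). At miR-136 and miR-431 neither arm could be said to prevail in Control, with 16 reads of each arm at miR-136 and a 3p share of 30.0% from 20 reads at miR-431. These intervals take in counting error alone, because copies made by PCR do not count separate molecules.

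After TGF-β1 the 3p share was 98.6% at miR-433, 94.3% at miR-434, 12.4% at miR-337 and 51.7% at miR-136 of the reads, each within the Control interval of that hairpin (31.9% to 68.1% at miR-136). At miR-431 it was 60.6% (42.1% to 77.1%), but single libraries ran from 14.3% to 75.0% in Control and from 20.0% to 76.5% in TGF-β1. At miR-127 it was 98.0% (97.5% to 98.4%), above the Control interval. The number of miR-127-3p reads for each miR-127-5p read was 28.9, 31.9 and 19.1 in the Control libraries and 41.1, 76.1 and 41.8 in the TGF-β1 libraries. All TGF-β1 libraries were thus above all Control libraries (exact two-sided permutation p = 0.1, the smallest possible), and TGF-β1 replicate 2, with 14 reads of the 5p arm, stood far above the others. In a limma fit over the 84 hairpins whose arms both reached a mean of 1 RPM, the log2 ratio of the arms rose by 0.97 ± 0.26 (SE) at miR-127 with an adjusted p of 0.0156, a fit in which 33.3% of the hairpins were called in either direction. The fit added 1 RPM to each arm, near the level of miR-127-5p, which shrinks changes of that arm more than those of miR-127-3p. With a pseudocount of 0.1, 15 of the 84 hairpins were called in place of 28. The call was lost without Control replicate 1 (1.01, adjusted p = 0.0573), without Control replicate 3 (0.81, adjusted p = 0.0730) and without TGF-β1 replicate 2 (0.80, adjusted p = 0.0839), and with a pseudocount of 0.1 (0.96, adjusted p = 0.0607). The other 5 hairpins each had an arm under that mean and were not tested.

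**Figure D2:**
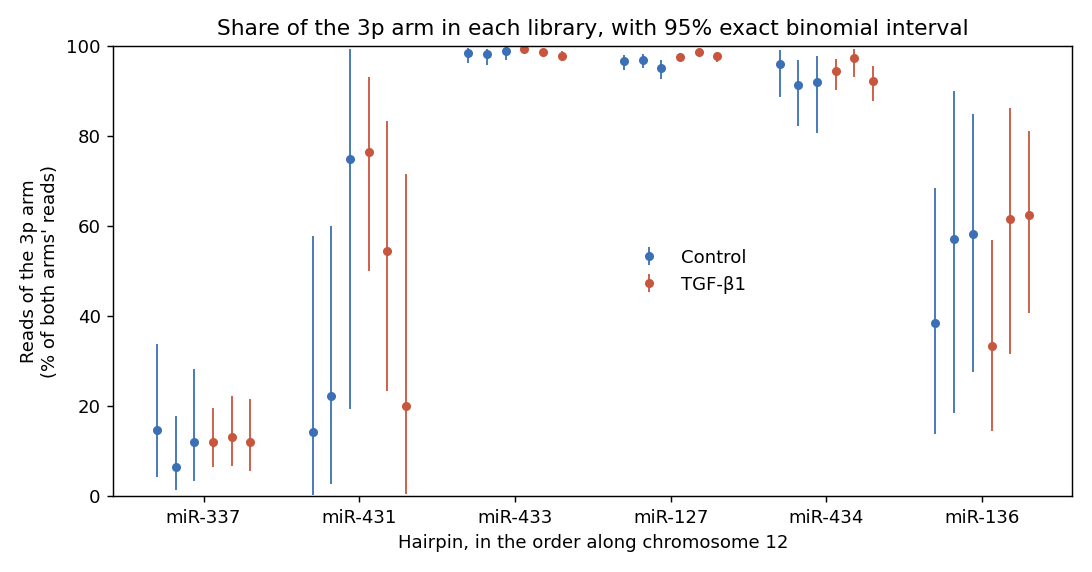
Reads of the 3p arm as a percentage of both arms' reads at each of the 6 hairpins, in the order along chromosome 12. Each point is a library, blue for Control and red for TGF-β1, and bars are 95% exact binomial intervals. The shares at miR-433, miR-127 and miR-434 are above 90%, those at miR-337 are under 15%, and those at miR-431 and miR-136 have wide intervals.

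The other 7 miRNAs of the group, mmu-miR-431-5p, mmu-miR-431-3p, mmu-miR-136-5p, mmu-miR-136-3p, mmu-miR-434-5p, mmu-miR-433-5p and mmu-miR-337-3p, had between 1 and 16 reads a library and did not pass the filter on low values. Their mean was higher in TGF-β1 for 6 of the 7, all but miR-431-5p. The share of all rows below the filter with a higher mean was not taken, so this count is a description only. In 2 of the 7 every TGF-β1 library lay above every Control library, a pattern seen in 7.03% of the rows below the filter. One was miR-337-3p, with 4, 3 and 4 reads in the Control libraries and 13, 11 and 9 reads in the TGF-β1 libraries, or 0.217 ± 0.0327 and 0.595 ± 0.0611 RPM (SD, n = 3 each). The other was miR-433-5p, with 4, 5 and 3 reads in Control and 7, 11 and 16 reads in TGF-β1, or 0.238 ± 0.0649 and 0.633 ± 0.295 RPM. Both are the minor arms of hairpins whose major arm rose. With no filter, miR-337-3p passed in both tests, with a log2 change of 0.39 (limma adjusted p = 0.00931) and of 1.43 (edgeR adjusted p = 0.0289). The share of all rows called in these 2 fits was not taken, and the edgeR fit was added after seeing the data. In the limma fit the pseudocount of 1 RPM exceeded both group means. From 3 to 13 reads a library, these calls are given as a description only. MiR-433-5p passed in neither, with a limma adjusted p of 0.0674 and an edgeR adjusted p of 0.0628.

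MiR-434-5p, the minor arm of its hairpin, had 3, 6 and 4 reads in the Control libraries and 11, 4 and 16 reads in the TGF-β1 libraries, and the groups overlapped. MiR-136, the hairpin nearest the downstream end of the group, gave 8, 3 and 5 reads of the 5p arm in Control and 14, 5 and 9 in TGF-β1, and 5, 4 and 7 reads of the 3p arm in Control and 7, 8 and 15 in TGF-β1. Both arms overlapped between the groups. MiR-431 was the lowest hairpin, with 6, 7 and 1 reads of the 5p arm in Control and 4, 5 and 4 in TGF-β1, while the 3p arm had 1, 2 and 3 reads in Control and 13, 6 and 1 in TGF-β1. A library with 1 read was present in each arm of miR-431. With no filter, none of the 4 arms of miR-431 and miR-136 was called, with limma adjusted p between 0.256 and 0.828 and edgeR adjusted p between 0.175 and 0.830. Thus hairpins within a few kilobases of each other on the same strand differed in level from under 1 RPM to over 27 RPM in Control.

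The other Dlk1-Dio3 miRNAs were split by name, from knowledge of the locus, into the remaining proximal hairpins and the distal group, which starts at miR-379. With the 6 hairpins of the Rtl1 antisense region included, 51 hairpins were listed. All 42 of them that were found by name in the annotation lie between Dlk1 and Dio3. Of 14 other proximal rows, 3 were fitted, of which 1 was called higher and 0 lower, with a median log2 change of 0.084. These were miR-341-3p, with 7.93 ± 2.95 RPM in Control and 5.15 ± 2.81 in TGF-β1 (-0.57 ± 0.36 as the change of log2(RPM + 1), SE, adjusted p by limma = 0.228), miR-540-3p, with 0.828 ± 0.277 and 0.973 ± 0.546 RPM (0.08 ± 0.22, adjusted p = 0.765), and miR-665-3p, named after its values were seen. Without TGF-β1 replicate 1, miR-341-3p was called lower (-0.92, limma adjusted p = 0.0329), the single Dlk1-Dio3 miRNA called lower in any of the fits. MiR-665-3p, whose hairpin lies 0.524 kb from the start of Mir337, rose from 0.335 ± 0.127 to 1.25 ± 0.0855 RPM (SD, n = 3 each, 0.75 ± 0.12 as the change of log2(RPM + 1), SE, adjusted p by limma = 0.00173), and it passed the filter only through its TGF-β1 libraries.

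Of the 63 distal rows, 26 were fitted, of which 19 were called higher and 0 lower, 5 with a log2 change above 1, and the median log2 change was 0.69. All 26 had a log2 change above 0, as had 151 of all 408 fitted miRNAs. Of those 408, 17.4% were called higher by limma, 31.9% lower, and 4.41% higher with a log2 change above 1. Of the 26, 4 had passed the filter only through their TGF-β1 libraries, so their change was bound to be above 0. This held for 0 of the 5 fitted miRNAs of the Rtl1 antisense region. The most abundant was miR-382-3p, with 29.8 ± 2.92 RPM in Control and 54.4 ± 13.5 in TGF-β1 (SD, n = 3 each, 0.82 ± 0.18 as the change of log2(RPM + 1), SE, adjusted p by limma = 0.00711). MiR-485-5p had 14.4 ± 0.346 and 34.9 ± 2.05 RPM (1.22 ± 0.12, adjusted p = 0.000156), a level and a change near those of miR-433-3p. Whether the changes near Rtl1 differed from the distal ones was not tested.

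**Figure D3:**
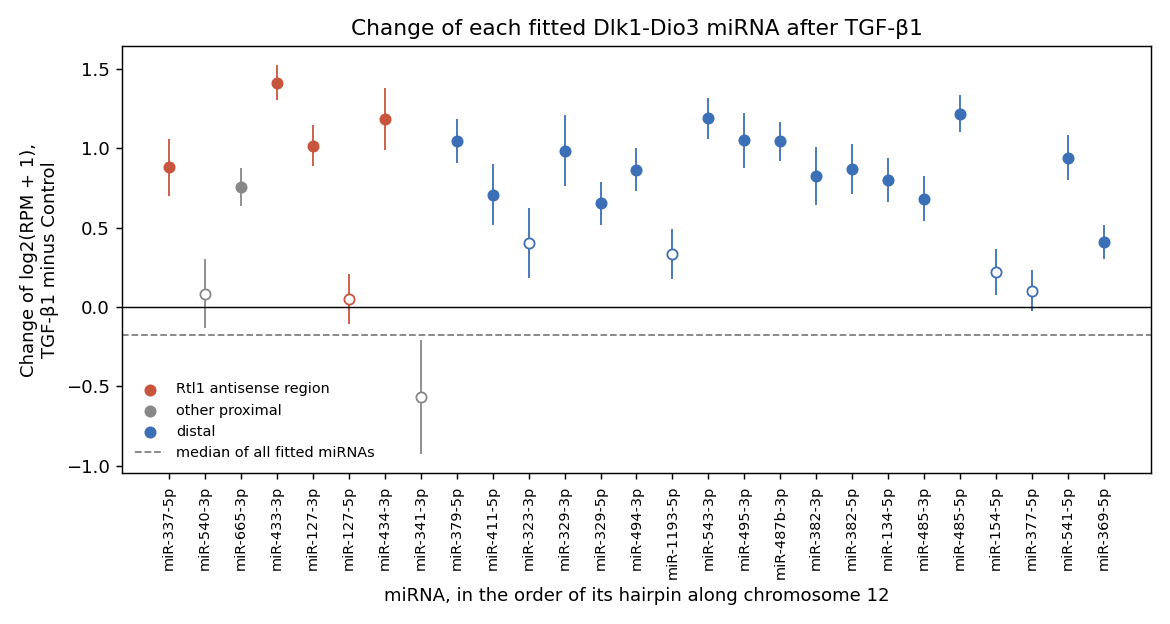
Change of log2(RPM + 1), TGF-β1 minus Control, of the 27 of 34 fitted Dlk1-Dio3 miRNAs whose hairpin has a position, in the order along chromosome 12. Bars are standard errors, filled points have a limma adjusted p under 0.05, and the dashed line is the median of all 408 fitted miRNAs (-0.17). Members of the Rtl1 antisense region (red) lie between 0.05 and 1.41, and miR-341-3p is the only point below 0.

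Outside the Dlk1-Dio3 lists, the 5 miRNAs whose course over the 6 libraries was most like the mean of the fitted miRNAs of the Rtl1 antisense region were, of 374 candidates, miR-181a-2-3p (Pearson r = 0.998), miR-452-5p (0.993), miR-183-3p (0.992), miR-192-5p (0.991) and miR-365-2-5p (0.991). These correlations are between 2 groups of 3 libraries, share the library totals and follow from any rise with little spread. MiR-181a-2-3p had 30.1 RPM in Control and 62.5 RPM in TGF-β1 as group means, a rise of 1.03 ± 0.13 in log2(RPM + 1) (SE, adjusted p by limma = 0.000657), close in level and in change to miR-127-3p. MiR-192-5p, one of the miRNAs listed as epithelial below, went from 297 to 350 RPM. Its rise of 0.23 ± 0.08 in log2(RPM + 1) (SE, adjusted p by limma = 0.0396) was a far smaller change of the same course.

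Markers of the labelled cell type and of other cells were set beside these changes, and their part in them was not tested. All 6 of 6 contractile and mesenchymal miRNAs reached a mean of 1 RPM, and their sum was between 17381 and 18864 RPM in Control and between 17955 and 21743 RPM in TGF-β1, mostly of miR-21-5p (14793 to 18668 RPM over all libraries). Beneath that sum miR-145-5p was higher in every TGF-β1 library (97.3 to 148 RPM in Control and 231 to 247 RPM in TGF-β1), while miR-199a-3p (558 to 666 and 480 to 487 RPM) and miR-199a-5p (11.9 to 15.9 and 5.53 to 9.52 RPM) were lower. For miR-143-3p the groups overlapped, at 1892 to 2135 RPM in Control and 1874 to 2348 RPM in TGF-β1. MiR-214-3p also overlapped between the groups (6.07 to 11.3 and 5.75 to 8.13 RPM). Of 7 miRNAs listed as epithelial, 5 reached that mean. The sum of the list was between 315 and 329 RPM in Control and between 343 and 367 RPM in TGF-β1, mostly of miR-192-5p. The members of that list moved apart, since 3 of these 5 were lower in every TGF-β1 library, namely miR-200a-3p (11.99 to 13.4 RPM in Control and 0.726 to 1.64 RPM in TGF-β1), miR-200b-3p (5.52 to 8.13 and 0.351 to 0.892 RPM) and miR-429-3p (3.52 to 4.62 and 0.279 to 0.298 RPM). Higher in every TGF-β1 library were miR-192-5p (290 to 304 and 337 to 361 RPM) and miR-194-5p (2.04 to 2.64 and 3.41 to 4.51 RPM). Neuronal miRNAs, of interest because Dlk1-Dio3 miRNAs are abundant in brain, were found for 4 of 5 names and summed to between 4.38 and 5.05 RPM in Control and between 3.52 and 4.02 RPM in TGF-β1. Within that list miR-124-3p was at 1.09 to 1.74 RPM in Control and 0.351 to 0.892 RPM in TGF-β1. The groups overlapped for miR-138-5p (1.86 to 2.33 and 1.45 to 2.05 RPM). For miR-9-5p (0.659 to 1.02 and 1.04 to 1.06 RPM) they lay apart by less than the worth of 1 read. The fall of the sum was thus not seen in every member. Endothelial miRNAs (2 of 2 names) summed to at most 0.298 RPM and blood miRNAs (3 of 5 names) to at most 0.600 RPM in any library, with miR-126-3p listed at 0 in 4 of 6 libraries. Skeletal muscle miRNAs (3 of 3 names) summed to between 3440 and 3646 RPM in Control and between 3285 and 3465 RPM in TGF-β1, nearly all of it miR-206-3p, at between 3275 and 3634 RPM in single libraries.

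**Figure D4:**
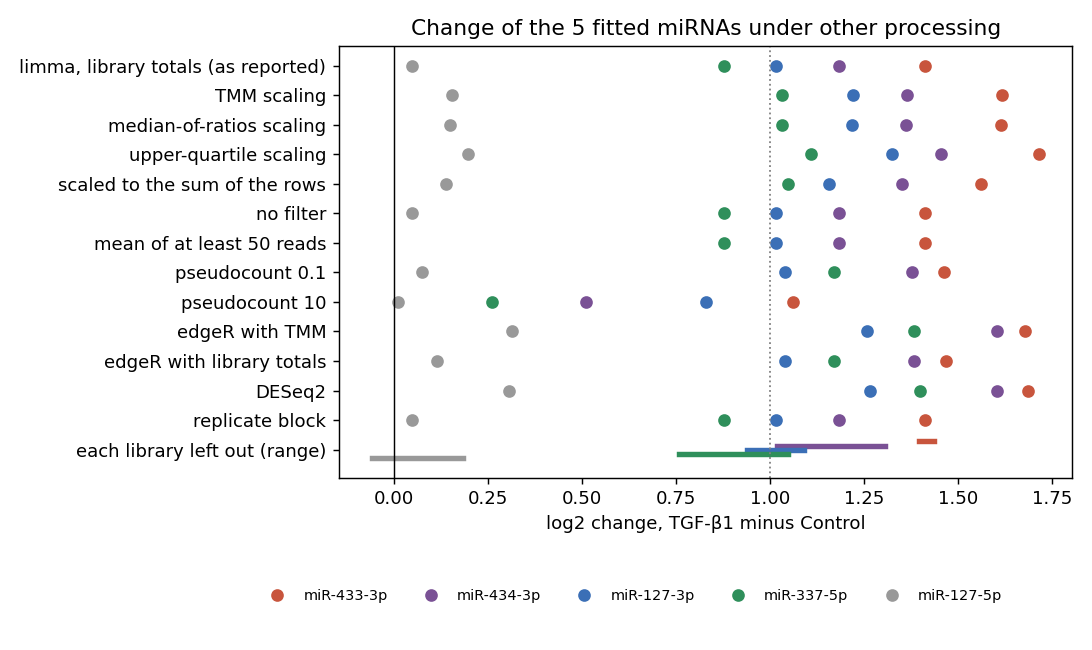
The log2 change, TGF-β1 minus Control, of the 5 fitted miRNAs as reported (top) and under other scalings, filters, pseudocounts and tests, with the range over the 6 fits that leave out a library at the bottom. The solid line marks 0 and the dotted line a log2 change of 1. MiR-433-3p stays between 1.06 and 1.71, and miR-127-5p lies between -0.057 and 0.31.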

How the data were processed

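The authors isolated total RNA with TRIzol, sequenced small RNA on an Illumina HiSeq instrument, trimmed adaptors, removed contaminants, low-quality reads and reads under 18 nt, and compared the rest with miRBase release 17 using Bowtie. How reads matching several miRNAs were counted is not given in the sources used here. The deposited values, named TPM, are RPM without scaling by length, relative to a library total that exceeds what the rows add up to. That total was recovered as the integer that makes the values whole reads, and 100% came out whole within 0.002.

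Since the values were normalized, the branch for such values was the main test: log2(RPM + 1) was fitted by limma 3.58.1 with a trended prior in R 4.3.3, for the 408 miRNAs that passed edgeR's filterByExpr (edgeR 4.0.16, minimum count 10, or 0.576 RPM in at least 3 libraries), with Benjamini-Hochberg adjustment. It called 201 miRNAs. On recovered reads edgeR called 194 with library totals and 188 with TMM, and DESeq2 1.42.0 called 147. Arm ratios were fitted in the same way over 84 hairpins. Library measures and ratios were tested by exact permutation (scipy 1.17.1). The miRNA fits were checked on simulated reads with changes larger than those of the members, and the arm fit on simulated ratios. These checks do not cover changes of the size seen here.

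The members and lists, the alternatives and the tests were chosen with earlier results of these data known. All rows of the 6 hairpins were named, with the 2 most abundant of each other Dlk1-Dio3 list, the 5 most similar profiles and defining cell markers. Alternatives were scaling by TMM, by the median of ratios, by the upper quartile and by the summed rows, dropping the filter or asking for a mean of 50 reads, a pseudocount of 0.1 or 10, the count tests, a replicate block and each library left out. Added after seeing the data were edgeR without a filter, an arm prior without a trend, and the ratio of miR-433-3p to miR-127-3p. Libraries with the same number did not deviate together (correlations of -0.084, -0.21 and -0.34), so the numbers were not taken to pair them.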

Additional observations from a re-analysis of the deposited data

How the results depend on the processing

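MiR-127-3p, miR-433-3p, miR-434-3p and miR-337-5p were called higher under all 18 alternatives listed in the processing other than those added later. The log2 change was above 1 in 14, 18, 17 and 9 of them. MiR-127-5p was called in 0 of the 17 fits it entered and changed sign without TGF-β1 replicate 1 (-0.057, limma adjusted p = 0.827), with a range of -0.057 to 0.18 over the fits that leave out a library.

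The number of miRNAs of the Rtl1 antisense region called with a log2 change above 1 was 3. It was 1 with a pseudocount of 10, which shrinks low levels, 4 with edgeR on library totals and 5 when that test had no filter, while limma without a filter gave 3. The number was also 4 under each of the other scalings, with a pseudocount of 0.1, with edgeR and TMM and with DESeq2. With a library left out it ran from 2 to 4, and was 2 without Control replicate 3, TGF-β1 replicate 1 or TGF-β1 replicate 2. With an absolute log2 change above 2 it was 0 by limma, where 4 of the 5 had an unadjusted p under 0.05, and no alternative put a fitted member above 1.71. The median log2 change of 1.02 moved to 1.22 under TMM, 1.22 under the median of ratios, 1.32 under the upper quartile, 0.51 with a pseudocount of 10, 1.38 with edgeR and TMM and 1.40 with DESeq2. The summed level had a ratio of 2.53 when divided by the summed rows, 2.66 with TMM and 2.57 without miR-127-3p, beside 2.30.

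The arm balance of miR-127 was 0.96 with a pseudocount of 0.1 (limma adjusted p = 0.0607) and ranged from 0.80 to 1.07 with a library left out, losing its call in 3 of 6 such fits. The number of hairpins called in that fit ran from 1 to 31 over its settings. No member hairpin was left where both arms needed a mean of at least 5 RPM. Other Dlk1-Dio3 miRNAs called higher numbered 20, and 8 where a mean of at least 50 reads was asked for, since fewer were tested. Those called lower ranged from 0 to 1 with a library left out. With a replicate block, 4 members were called higher and the arm balance of miR-127 was 0.97 (limma adjusted p = 0.0475), with 10 hairpins called in place of 28. The same 20 other Dlk1-Dio3 miRNAs were called with the block. Of the 15 fitted miRNAs named with a change or as similar profiles, 1 call changed, that of miR-192-5p (limma adjusted p = 0.0946). The cause of the remaining moves was not tested.

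Depth limits the 7 miRNAs below the filter, which had 1 to 16 reads a library, and the miR-127-5p arm, with 14 to 30.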
